A study of Mus musculus with 10 samples.

Results

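The variable (V) gene segments of the T cell receptor loci were examined in RNA from MC38 tumors, with the segments chosen as the genes whose symbol begins with Trav, Trbv, Trgv or Trdv and a number and that held at least 1 read count over all libraries. Of 45777 genes in the deposited table, 170 carried such a symbol and 135 of these had a count: 110 of 128 Trav segments, 19 of 35 Trbv segments, 5 of 6 Trdv segments and the single Trgv segment, Trgv2. The counts themselves chose the segments, so their presence is a description. At the edge of the choice, Trbv21, Trav5d-3 and Trav5n-3 entered with 1 count each, and 35 segments stayed outside with 0. Segments not annotated as pseudogenes were represented by 130 of 140, and V pseudogenes by 5 of 30.

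The tumors came from MC38, a mouse colon carcinoma cell line, injected under the skin of the right flank of wild-type female C57BL/6 mice bought at 6 weeks of age, and were fixed in formalin and embedded in paraffin before RNA extraction. There were 3 tumors given YH29407, an IDO1 inhibitor dosed at 100 mg/kg, together with aPD-1, an antibody against PD-1 dosed at 10 mg/kg (the combination, replicates 2, 3 and 4). A further 3 tumors were given YH29407 alone (replicates 1, 3 and 4), 2 were given aPD-1 alone (replicates 3 and 4) and 2 were controls (replicates 3 and 5), which the study treated with vehicle. All hosts had an intact immune system, and bulk tumor RNA cannot tell fewer T cells from less receptor RNA per cell. The labels call the samples colon cells, yet the epithelial keratins Krt8 and Krt18 were at or below 0.485 CPM in all 10 libraries, where CPM is counts per 1000000 of library size, scaled by TMM factors.

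A T cell builds each receptor chain by joining 1 V segment to a joining segment, with a diversity segment between them in the beta and delta chains, and the product is spliced to a constant region. Alpha and beta chains form the receptor of conventional CD4+ and CD8+ T cells, and gamma and delta chains that of gamma-delta T cells. In the mouse the delta locus lies inside the alpha locus, several V segments (those with dv in their names) can be used by either chain, and the Trav cluster of C57BL/6 holds duplicated blocks whose copies carry the letters d and n. A count assigned to a V segment does not show that the segment was rearranged or that the chain was productive.

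The copies limit what a count can be assigned to. Among the 135 segments, 65 were named as d or n copies, and the names collapsed to 72 when those letters were ignored. Reads were 100 bases long, and in the GENCODE M21 transcripts 95 segments shared at least 1 stretch of 100 bases with another V segment, 33 of them shared all, and 40 shared none. Reads from fully shared segments cannot be placed in one copy, so such copies are given together below. Sequences outside the V segments were not searched for shared stretches.

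The segment with the most counts, Trav15d-1-dv6d-1 at chr14:52863365-52863933 (plus strand, GRCm38), shared 82.1% of its 100-base stretches with Trav15n-1 at chr14:53174325-53174896, which had none of its own. The last 150 annotated bases of both, are printed to set the pair beside the copy in the third block, Trav15-1-dv6-1 at chr14:53559676-53560247. Capitals mark the 9 positions at which the third copy differs from the first pair, which are identical to each other here.
Trav15d-1-dv6d-1: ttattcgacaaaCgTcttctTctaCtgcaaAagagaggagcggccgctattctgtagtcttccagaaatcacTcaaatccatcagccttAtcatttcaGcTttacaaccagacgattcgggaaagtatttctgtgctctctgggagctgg
Trav15n-1: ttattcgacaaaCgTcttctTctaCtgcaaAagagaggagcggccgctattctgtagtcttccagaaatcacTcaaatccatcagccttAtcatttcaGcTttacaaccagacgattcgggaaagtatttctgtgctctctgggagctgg
Trav15-1-dv6-1: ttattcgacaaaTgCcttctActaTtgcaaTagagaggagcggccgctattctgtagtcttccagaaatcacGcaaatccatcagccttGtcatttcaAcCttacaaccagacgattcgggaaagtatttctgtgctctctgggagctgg

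A second pair of copies, Trav7d-2 at chr14:52683964-52684472 and Trav7-2 at chr14:53390633-53391136 (plus strand), was identical over its last 150 shared bases and is shown once, since it had no count in any YH29407 library.
Trav7d-2: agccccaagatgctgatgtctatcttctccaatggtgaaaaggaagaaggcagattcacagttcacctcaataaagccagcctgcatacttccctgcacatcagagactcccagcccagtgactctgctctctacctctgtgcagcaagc

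In the Trav7-5 group, Trav7d-5 (chr14:52835861-52836387) and Trav7n-5 (chr14:53146922-53147448) were identical over the shown stretch and Trav7-5 (chr14:53530786-53531313) differed from them at the 8 positions in capitals, so its counts can be read separately.
Trav7-5: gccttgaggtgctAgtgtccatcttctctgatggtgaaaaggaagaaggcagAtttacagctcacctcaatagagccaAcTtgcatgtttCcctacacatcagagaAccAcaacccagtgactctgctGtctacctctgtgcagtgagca
Trav7d-5: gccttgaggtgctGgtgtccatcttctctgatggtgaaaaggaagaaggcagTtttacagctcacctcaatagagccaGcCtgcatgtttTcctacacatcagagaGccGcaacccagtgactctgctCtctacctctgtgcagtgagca

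The gamma segment Trgv2 at chr13:19336573-19337026 (minus strand), the third most counted, shared no 100-base stretch with another V segment and is shown as the counterpart without copies.
Trgv2: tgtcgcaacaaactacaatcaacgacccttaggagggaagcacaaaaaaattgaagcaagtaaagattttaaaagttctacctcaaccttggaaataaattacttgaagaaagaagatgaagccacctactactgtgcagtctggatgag

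All libraries were deep, but few reads were assigned to V segments. Library totals ranged from 56170804 to 76287659 counts, of which V segments took 1626, 2100 and 1589 in the combination, 569, 1503 and 1872 with YH29407, 1769 and 2832 with aPD-1, and 438 and 465 in the controls. Scaled to library size this was 20.6, 29.5 and 28.5 CPM in the combination, 7.87, 19.8 and 27.0 CPM with YH29407, 27.8 and 38.8 CPM with aPD-1, and 6.22 and 6.63 CPM in the controls. Both control libraries were below each treated library in summed V segment CPM, and the combination and YH29407 libraries overlapped.

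The number of different segments with a count was 95, 93 and 70 in the combination libraries. It was 54, 70 and 49 with YH29407, 57 and 100 with aPD-1, and 50 and 71 in the controls. The means were 86.0 ± 13.9 in the combination and 57.7 ± 11.0 with YH29407 (SD, n = 3 each), and the lowest combination library equalled the highest YH29407 library. With at least 10 counts required, 48, 46 and 40 segments remained in the combination, 7, 28 and 7 with YH29407, 15 and 25 with aPD-1, and 9 and 14 in the controls. By this count all combination libraries exceeded all others. No test was made on these sums, because the segments were chosen with results known.

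**Figure D1:**
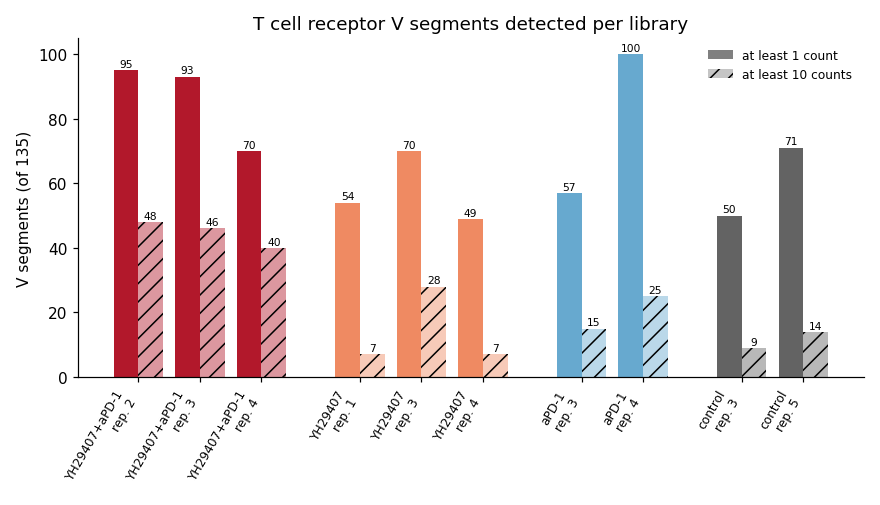
Number of T cell receptor V segments (of 135) with at least 1 count (solid bars) and at least 10 counts (hatched bars) in each of 10 libraries, grouped by treatment. At 10 counts the 3 combination libraries held 40 to 48 segments and the other 7 libraries 7 to 28.

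Breadth depends on how many counts there are to spread. When each library was thinned to 438 V segment counts, the total of the smallest library, the expected number of segments was 78.0, 74.9 and 62.8 in the combination, 52.3, 56.3 and 30.9 with YH29407, 40.2 and 61.5 with aPD-1, and 50.0 and 70.5 in the controls. At equal depth the controls therefore overlapped the combination. When d and n copies were collapsed to 1 name, the mean difference between the combination and YH29407 was 13.7 names, against 28.3 segments before.

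The balance between libraries depended on 1 pair of copies. Trav15d-1-dv6d-1 held 3272 counts and Trav15n-1 3137, together 6409 of all 14763 V segment counts. The pair took 6.89%, 11.2% and 3.46% of V segment counts in the combination, 52.9%, 42.8% and 87.2% with YH29407, 71.7% and 70.3% with aPD-1, and 33.6% and 5.38% in the controls. Every library given 1 agent alone had at least 42.8% of its V segment counts in this pair, and no combination library had more than 11.2%.

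Without the pair, summed V segment CPM was 19.2, 26.1 and 27.5 in the combination. It was 3.70, 11.3 and 3.46 with YH29407, 7.88 and 11.5 with aPD-1, and 4.13 and 6.27 in the controls. All combination libraries then stood above all other libraries, and the ratio of the combination mean to the YH29407 mean changed to 1.98 on the log2 scale, against 0.52 with the pair included. That ratio was lowered by YH29407 replicate 3, the highest of its group without the pair. It was 2.76 without this library and 1.69 to 2.12 when any other library was left out. Thinned to 240 counts without the pair, the expected numbers of segments were 64.7, 62.1 and 53.1 in the combination, 51.4, 53.6 and 47.0 with YH29407, 48.2 and 77.2 with aPD-1, and 47.2 and 61.8 in the controls. The groups overlapped in this number, and aPD-1 replicate 4 was the highest library. The mean difference between the combination and YH29407 was then 9.28. This removal of the pair was chosen after its values had been seen.

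**Figure D2:**
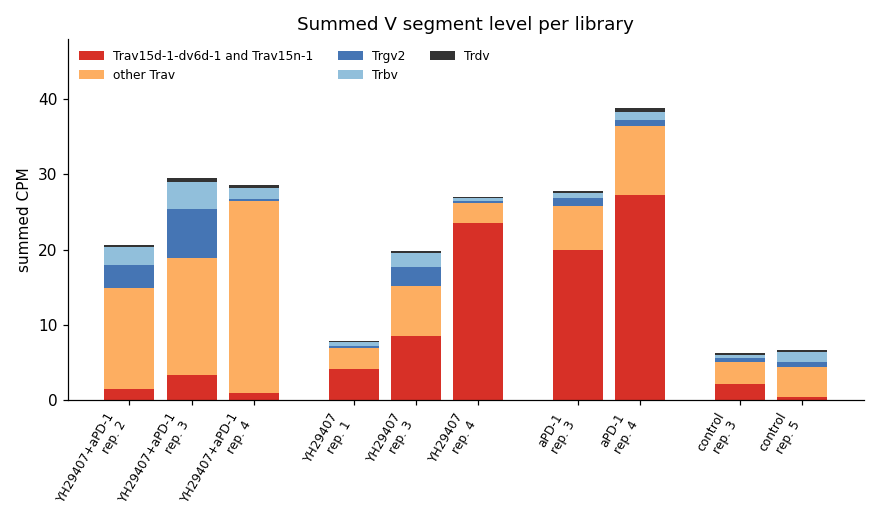
Summed CPM of V segments in each of 10 libraries, stacked by the Trav15d-1-dv6d-1 and Trav15n-1 pair, the other Trav segments, Trgv2, Trbv and Trdv segments. The pair makes up 0.987 to 3.31 CPM in the combination, 4.16 to 23.5 CPM with YH29407, 20.0 to 27.3 CPM with aPD-1 and 0.356 to 2.09 CPM in the controls.

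Beyond the alpha locus, beta chain V segments summed to 2.37, 3.49 and 1.40 CPM in the combination, 0.567, 1.90 and 0.390 CPM with YH29407, 0.629 and 1.07 CPM with aPD-1, and 0.398 and 1.25 CPM in the controls. The combination and YH29407 libraries overlapped, since YH29407 replicate 3 exceeded combination replicate 4. Trav11 and Trav11d, the V segments of the invariant receptor of NKT cells, shared nearly all stretches and had at most 3 counts in any library. Across all libraries, 6 segments had a count in each library, namely Trav15d-1-dv6d-1, Trav15n-1, Trgv2, Trbv3, Trav14n-1 and Trbv13-2, and 11 segments had counts in 1 library.

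The Trav15 pair held the most counts of all V segments. Trav15d-1-dv6d-1, which can serve in alpha or delta chains, had 57, 122 and 27 counts in the combination, 152, 326 and 830 with YH29407, 655 and 1014 with aPD-1, and 76 and 13 in the controls. Its copy Trav15n-1 had 55, 114 and 28 counts in the combination, 149, 317 and 802 with YH29407, 613 and 976 with aPD-1, and 71 and 12 in the controls. Combination libraries lay below all libraries given either agent alone and overlapped the controls.

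The third copy did not share this level. Trav15-1-dv6-1, all of whose 100-base stretches were its own, had 20 counts over the 10 libraries, 0, 3 and 4 of them in the combination, 0, 3 and 6 with YH29407, 4 and 0 with aPD-1, and 0 and 0 in the controls. On the deposited TPM scale, which corrects for gene length, Trav15d-1-dv6d-1 was at 4.998, 12.2 and 2.52 in the combination, 14.4, 30.0 and 84.2 with YH29407, 69.8 and 92.7 with aPD-1, and 7.19 and 1.18 in the controls.

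By edgeR's quasi-likelihood test over 21523 genes, Trav15n-1 had a log2 fold change of -2.66 ± 0.82 (SE) in the combination over YH29407 and of -3.62 ± 0.89 over aPD-1, with Benjamini-Hochberg adjusted p of 0.227 and 0.565. Against the controls it was higher with aPD-1 by 4.28 ± 1.08 and with YH29407 by 3.33 ± 1.005, with an adjusted p of 1 for each. None of these passed the threshold of 0.05. With DESeq2 on the same counts, all 4 differences passed, at adjusted p of 0.0163, 0.0045, 0.00905 and 0.0241. Trav15d-1-dv6d-1, which shares the reads, gave the same calls by both tools and is not a separate measurement.

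Next to the pair in the genome lie Trav14d-1 (chr14:52855665-52856166) and Trav14n-1 (chr14:53166677-53167178), which shared all their stretches with each other. Trav14n-1 had 2, 2 and 5 counts in the combination, 20, 23 and 15 with YH29407, 13 and 19 with aPD-1, and 3 and 3 in the controls. Like the Trav15 pair, and with far fewer counts, it was higher in CPM in every library given 1 agent alone than in every combination and control library. In the combination it differed from YH29407 by a log2 fold change of -2.46 ± 0.76 (SE, edgeR adjusted p 0.226). Trav14-1 of the third block, with all stretches its own, had 2, 9 and 0 counts in the combination, 0 in each library given 1 agent alone, and 10 and 6 in the controls.

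Levels of the T cell constant regions did not follow the Trav15 pair. Trac, the alpha chain constant region, was at 10.6, 11.8 and 2.05 CPM in the combination, 1.55, 4.53 and 1.43 CPM with YH29407, 4.19 and 3.77 CPM with aPD-1, and 3.08 and 2.18 CPM in the controls. YH29407 replicate 4, with 23.5 CPM of the pair, had the lowest Trac level of all libraries. The delta constant region Trdc was at 0.52, 1.35 and 0.0718 CPM in the combination, 0.0968, 0.198 and 0.144 CPM with YH29407, 0.299 and 0.48 CPM with aPD-1, and 0.142 and 0.313 CPM in the controls. Which constant region the Trav15 reads were joined to was not tested.

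The Trav7-2 pair showed the opposite order between the combination and YH29407. Trav7d-2 had 44, 77 and 52 counts in the combination, 0 in all 3 YH29407 libraries, 48 and 27 with aPD-1, and 16 and 6 in the controls. Trav7-2 had 42, 62 and 27 counts in the combination, 0 in all 3 YH29407 libraries, 42 and 25 with aPD-1, and 14 and 5 in the controls. YH29407 libraries were thus the only group without a count, and they held 569 to 1872 V segment counts each. Outside the Trav15 pair they held 268, 860 and 240, against 291 and 440 in the controls.

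With a floor of 3 counts per library for YH29407, Trav7d-2 was at least 20.7-fold higher in the combination than with YH29407, and at least 3.78-fold lower with YH29407 than in the controls. Its edgeR adjusted p between the combination and YH29407 was 0.163, and over 12 alternatives it ranged between 4.5e-07 and 0.849. DESeq2 gave 4.5e-07 for this comparison and 0.0115 for YH29407 against the controls. Leaving out YH29407 replicate 3 gave an edgeR adjusted p of 0.0274 and leaving out combination replicate 4 one of 0.0399, so that the edgeR call depended on the libraries included. Against the controls, Trav7d-2 was higher in the combination by a log2 fold change of 2.44 ± 0.76 (SE, edgeR adjusted p 0.46).

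**Figure D3:**
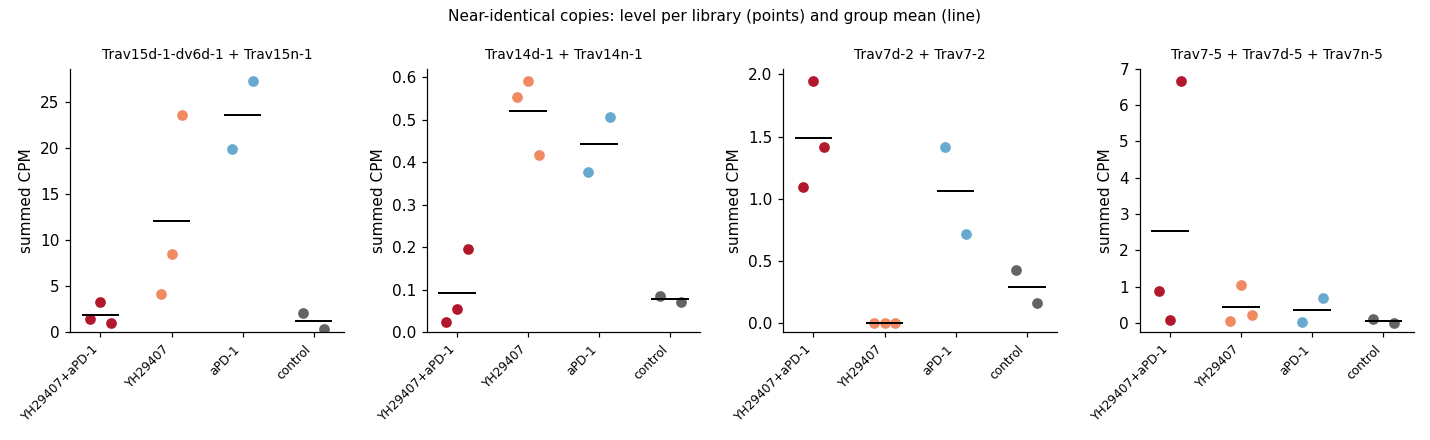
Summed CPM of 4 sets of near-identical V segment copies per library (points) with group means (lines), for 3 combination, 3 YH29407, 2 aPD-1 and 2 control libraries, on separate linear axes. The Trav15 and Trav14-1 pairs are lowest in the combination and the controls, the Trav7-2 pair is at 0 in all YH29407 libraries, and the Trav7-5 copies reach 6.68 CPM in combination replicate 4 alone.

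The combination libraries were not alike. Keratinocyte genes (6 listed, all with counts in replicates 2 and 3) summed to 504 and 149 CPM in combination replicates 2 and 3, against 1.35 CPM in replicate 4, 0.553 to 1.40 CPM with YH29407, 0.425 and 0.521 CPM with aPD-1 and 0.881 and 0.47 CPM in the controls. Lor, a protein of cornified skin, was at 0 in every library outside replicates 2 and 3. Combination replicate 4 instead had 149 CPM of 3 skeletal muscle genes (28.5 and 15.9 CPM in replicates 2 and 3, 0.563 to 4.08 CPM with YH29407, 34.1 and 2.99 CPM with aPD-1, 1.41 and 1.21 CPM in the controls). It also had 1419 CPM of 1527 olfactory and vomeronasal receptor genes, against 372 and 392 CPM in the other combination libraries and 104 to 388 CPM in the other groups. Rag1, which cuts the DNA at V segments in developing lymphocytes, was at 1.17 CPM there and at most 0.0284 CPM elsewhere. Rag2 and Dntt, listed with it, were at 0.413 and 0.88 CPM there and at most 0.0548 and 0.157 CPM elsewhere. Ptcra, the pre-T cell receptor alpha chain and the last gene of that list, was at 0 throughout. The part of these signals in the V segment counts was not tested.

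The V segments of combination replicate 4 also differed from those of its group. Trav7n-5 had 32, 3 and 170 counts in combination replicates 2, 3 and 4, 0, 16 and 6 with YH29407, 1 and 19 with aPD-1, and 5 and 0 in the controls. Trav7-5, whose sequence sets it apart, had 14, 0 and 87 counts in the combination, 3, 51 and 3 with YH29407, 0 and 18 with aPD-1, and 0 and 0 in the controls. The Trav6-5, Trav6d-5 and Trav6n-5 copies summed to 0.444, 0.323 and 5.51 CPM in the combination, 0.221, 0.198 and 0.159 CPM with YH29407, 0 and 0.384 CPM with aPD-1, and 0.185 and 0 CPM in the controls. For these segments a combination mean is a value of 1 library.

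Trav10 and Trav19 had the same high library. Trav10 had 8, 11 and 61 counts in the combination, 7, 11 and 0 with YH29407, 0 and 0 with aPD-1, and 0 and 8 in the controls. Trav19 had 3, 11 and 31 counts in the combination, 0 in every YH29407 and aPD-1 library, and 0 and 2 in the controls. Trav19 was at 0 in all libraries given 1 agent alone, and its edgeR adjusted p between the combination and YH29407 was 0.236.

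A second set of segments was high in combination replicates 2 and 3 and absent or low in replicate 4. Trav13n-1 had 105, 92 and 0 counts in the combination, 16, 5 and 16 with YH29407, 15 and 21 with aPD-1, and 3 and 3 in the controls. Trav13n-4, which shared no 100-base stretch with another V segment, was at 1.12, 1.09 and 0.0538 CPM in the combination, 0, 0.0658 and 0 CPM with YH29407, 0.0944 and 0 CPM with aPD-1, and 0 and 0.0997 CPM in the controls. Trav13d-4, named as its copy in another block, had 23, 13 and 54 counts in the combination, 0, 30 and 5 with YH29407, 12 and 0 with aPD-1, and 0 and 16 in the controls, and did not share its low level in combination replicate 4. The beta segment Trbv13-1 (chr6:41116036-41116468), of the mouse family also called Vbeta8 and chosen after its values were seen, had 80, 58 and 0 counts in the combination, 0, 21 and 2 with YH29407, 0 and 7 with aPD-1, and 0 and 3 in the controls. Within the combination its counts came from replicates 2 and 3 alone.

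Trbv5 (chr6:41062359-41062803), also a beta segment, was higher on the CPM scale in each combination library than in each YH29407 library. It had 33, 60 and 7 counts in the combination, 3, 9 and 2 with YH29407, 0 and 3 with aPD-1, and 8 and 0 in the controls. On the CPM scale the combination values of 0.419, 0.842 and 0.126 lay above the YH29407 values of 0.0415, 0.119 and 0.0289, with a log2 fold change of 2.84 ± 1.38 (SE, edgeR adjusted p 0.312). The margin between the nearest libraries was small, with combination replicate 4 just above YH29407 replicate 3. On the deposited TPM scale the order of those libraries turned round, at 0.676 in combination replicate 4 and 0.833 in YH29407 replicate 3, so that the groups overlapped.

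Other segments named by the same rule had lower counts. Trav9d-3 and Trav9n-3, copies of each other, had 10 to 20 counts in every combination library, 0 to 11 with YH29407, 3 or 4 with aPD-1 and 0 in both controls. Trav7-4 had 24, 31 and 4 counts in the combination, 0, 0 and 4 with YH29407, 4 and 7 with aPD-1, and 0 and 8 in the controls. Trav12-3, chosen after its values were seen, had 0, 7 and 0 counts in the combination and 59 and 50 with aPD-1, where both libraries lay above the other groups, with 2, 2 and 0 with YH29407 and 5 and 8 in the controls.

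The remaining segments of the rule spread over the groups. Trav6d-7 and Trav6n-7 had 7 to 20 counts in each combination library, 0 to 4 with YH29407, 3 or 4 with aPD-1, and 7 and 0 in the controls. Trbv12-1 had 7, 6 and 32 counts in the combination, 5, 11 and 2 with YH29407, 0 in both aPD-1 libraries, and 0 and 13 in the controls. Trbv3 had 3 and 7 counts with aPD-1 and 9 and 20 in the controls, and Trav14-3 had 0 and 2 with aPD-1 and 6 and 8 in the controls. Neither difference passed an adjusted threshold in any fit.

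Of the gamma-delta segments, Trgv2 carried most counts. It is the V segment usually joined to the second gamma constant region, Tcrg-C2, and had 239, 463 and 18 counts in the combination, 23, 190 and 23 with YH29407, 72 and 54 with aPD-1, and 37 and 53 in the controls. Tcrg-C2 was at 4.03, 7.28 and 1.29 CPM in the combination, 0.401, 3.49 and 0.418 CPM with YH29407, 1.07 and 0.603 CPM with aPD-1, and 0.54 and 0.442 CPM in the controls. The highest 3 libraries of both genes were combination replicates 2 and 3 and YH29407 replicate 3, and combination replicate 3 led both.

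In combination replicate 4 the ratio of Trgv2 to Tcrg-C2 was 0.25, against 0.752 and 0.892 in the other combination libraries and 0.717 to 1.71 in the rest of the series. Trgv2 did not pass edgeR's test in any comparison, with a log2 fold change of 1.64 ± 1.06 (SE, adjusted p 0.408) between the combination and YH29407. Gamma chain RNA is also made by alpha-beta T cells of the mouse, so the level of Trgv2 is no count of gamma-delta T cells.

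**Figure D4:**
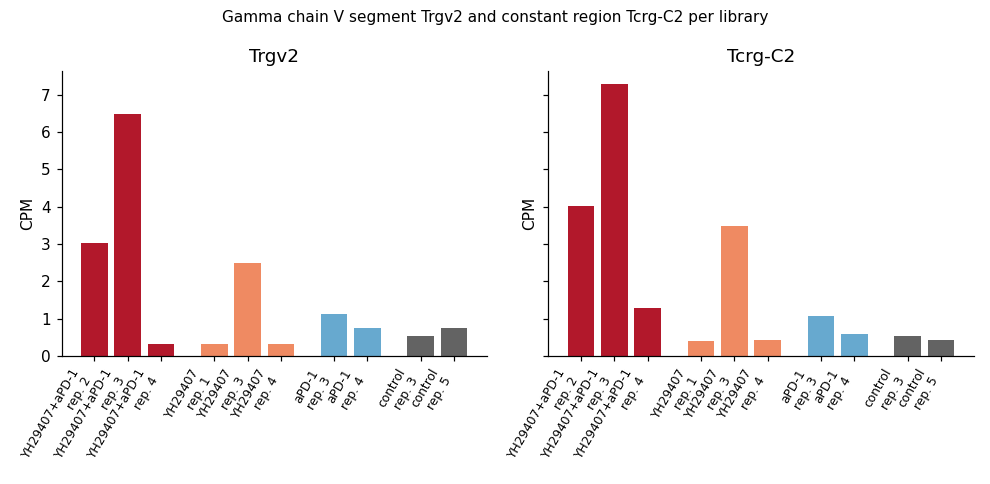
CPM of the gamma V segment Trgv2 (left) and the gamma constant region Tcrg-C2 (right) in each of 10 libraries, on a shared linear axis. Combination replicates 2 and 3 and YH29407 replicate 3 are the 3 highest libraries in both panels.

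The other 6 gamma V segments are listed under Tcrg-V names and so were not among the 135. They summed to 0.761, 1.08 and 0.0359 CPM in the combination, 0.235, 0.382 and 0.0866 CPM with YH29407, 0.472 and 0.329 CPM with aPD-1, and 0.0568 and 0.256 CPM in the controls. Most of this was Tcrg-V1, while Tcrg-V5 and Tcrg-V6, typical of gamma-delta T cells of skin and mucosal tissue, stayed at or below 0.0276 CPM, and Tcrg-V7 was at 0 in every library. Trdv4, the delta segment of epidermal gamma-delta T cells, had 15, 38 and 0 counts in the combination, 9, 9 and 6 with YH29407, 16 and 37 with aPD-1, and 16 and 15 in the controls. On the CPM scale both aPD-1 libraries lay above the controls and the YH29407 libraries below them, by small margins.

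Across all segments, no V segment passed edgeR's adjusted threshold in any of the 5 comparisons, and neither did any other gene (0% of 21523). Only 57 of the 135 segments passed the filter on low counts, and 78 were left untested. A segment could pass through the group in which it was high, so the edgeR counts over all 10 libraries and the counts of segments without overlap describe those 57 and support no direction. DESeq2 was run without that filter, but its own default filtering gave no adjusted p to some genes with low counts. For the combination against YH29407, 22696 genes had an adjusted p, and in the interaction test Trav19, for example, had none. How many of the 135 segments had an adjusted p by DESeq2 was not counted. The edgeR fits without YH29407 replicate 3 and without combination replicate 4 tested 55 and 49 segments. Groups held 2 or 3 libraries, and the labels do not say whether these were separate animals, so p-values measure the spread between libraries.

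Between the combination and YH29407, an unadjusted p under 0.05 was reached by 8 segments with more RNA and by 3 with less in the combination, and in the same directions by 10.6% and 6.84% of all genes. Libraries of the 2 groups did not overlap for 12 segments that were higher and 4 that were lower, against 10.4% and 9.1% of all genes. The 8 of 57 segments tested became 16 of 49 without combination replicate 4, 12 of 55 without YH29407 replicate 3 and 5 of 57 without YH29407 replicate 4. They became 5 of 40 without combination replicate 2 and 5 of 42 without combination replicate 3, and the 3 became 1 of 57 without YH29407 replicate 4. The share of all genes at that p was not counted in these fits, so the changes describe the fits and not the segments. DESeq2 called 4 segments in this comparison, namely the Trav7-2 and Trav15 pairs, and 6.14% of the genes it tested. Leaving out YH29407 replicate 3 gave edgeR calls for 2 segments, the Trav7-2 pair, and 2.01% of genes, and leaving out combination replicate 4 gave the same pair and 0.846% of genes.

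In the combination against the controls, that unadjusted p was reached by 9 segments that were higher and by 0 that were lower (6.98% and 3.12% of genes), and DESeq2 called 0 segments and 1.96% of genes. The 9 of 57 became 5 of 40 without combination replicate 2, 8 of 42 without combination replicate 3 and 15 of 49 without combination replicate 4. Against aPD-1, 7 segments were higher and 4 lower in the combination (5.76% and 2.34% of genes), and DESeq2 called the Trav15 pair and 1.52% of genes. The 7 of 57 became 4 of 40 without combination replicate 2, 3 of 42 without combination replicate 3 and 8 of 49 without combination replicate 4. For YH29407 against the controls, 3 segments were higher and 2 lower (3.04% and 1.51% of genes), and DESeq2 called 4, again the Trav15 and Trav7-2 pairs, and 0.698% of genes. The 3 of 57 became 4 of 57 without YH29407 replicate 1, 3 of 55 without YH29407 replicate 3 and 5 of 57 without YH29407 replicate 4. For aPD-1 against the controls, 4 were higher and 0 lower (1.39% and 1.32% of genes), and DESeq2 called the Trav15 pair and 0.213% of genes. Leaving out a control or aPD-1 library left no spread within that group, so counts at that unadjusted p from those fits are not given. The share of all genes at that p was not counted in any fit with a library left out, so these changes describe the fits and not the segments. The comparisons share libraries, so their lists are not independent of each other.

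Other T cell genes gave a setting for these values. Of 8 constant region genes measured, 7 were tested and 4 were higher in the combination than with YH29407 at an unadjusted p under 0.05, and so were 3 of 4 CD3 and zeta chain genes and 1 of 3 coreceptor genes, with none past the adjusted threshold. By the same rule 10.6% of all genes were higher. The lists are short and were chosen with results known, so these counts describe the listed genes and support no direction. The CD3 and zeta chains, which carry the signal of the receptor, summed to 20.2, 25.1 and 8.97 CPM in the combination, 3.15, 10.4 and 3.001 CPM with YH29407, 6.28 and 7.62 CPM with aPD-1, and 5.21 and 4.203 CPM in the controls. The 8 constant regions summed to 28.7, 34.9 and 6.62 CPM in the combination and 4.70, 13.1 and 3.996 CPM with YH29407. With aPD-1 they were at 9.33 and 10.2 CPM, and in the controls at 7.30 and 6.95 CPM. Combination replicate 4 thus lay below every aPD-1 and control library in constant region RNA, unlike in V segments without the Trav15 pair. For the combination over YH29407 the constant regions had a median log2 fold change of 1.70, and Trac alone gave 1.70 ± 0.67 (SE, edgeR adjusted p 0.264).

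Joining segments were highest in combination libraries, with overlap in the alpha chain. The 60 Traj segments summed to 5.94, 7.08 and 3.11 CPM in the combination, 1.51, 3.90 and 1.38 CPM with YH29407, 2.66 and 2.58 CPM with aPD-1, and 2.07 and 2.02 CPM in the controls. YH29407 replicate 3 lay above combination replicate 4 in this sum. The 14 Trbj segments summed to 3.77, 4.52 and 2.67 CPM in the combination, 0.511, 1.15 and 0.866 CPM with YH29407, 1.29 and 1.69 CPM with aPD-1, and 1.15 and 1.24 CPM in the controls, so that the combination libraries lay above all others. Immunoglobulin V segments, the counterparts in B cells, summed to 20.2, 61.6 and 40.1 CPM in the combination, 2.88, 3.73 and 1.57 CPM with YH29407, 1.09 and 2.81 CPM with aPD-1, and 26.5 and 2.72 CPM in the controls. Control replicate 3 fell inside the combination range for this sum. The 4 listed B cell genes did not have the same order, with sums of 3.27, 7.03 and 3.52 CPM in the combination, 12.4, 4.78 and 17.1 CPM with YH29407, 2.58 and 2.04 CPM with aPD-1, and 4.19 and 4.57 CPM in the controls. Among them Cd79a, a signaling chain of the B cell receptor, was at 0.977, 1.64 and 1.01 CPM in the combination, 11.1, 3.70 and 14.7 CPM with YH29407, 1.90 and 1.14 CPM with aPD-1, and 2.86 and 3.23 CPM in the controls. Its log2 fold change in the combination over YH29407 was -3.02 ± 0.52 (SE, edgeR adjusted p 0.181).

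**Figure D5:**
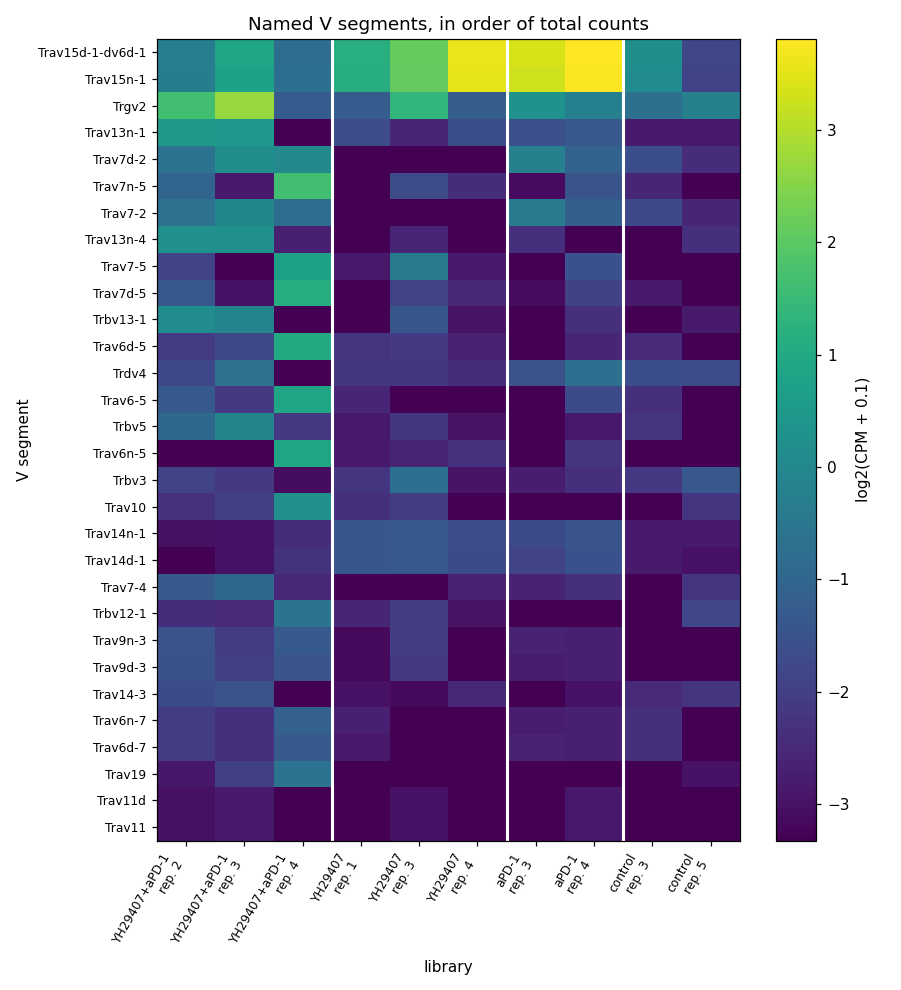
Level of 30 named V segments in each of 10 libraries as log2(CPM + 0.1), ordered from top to bottom by total counts. The Trav15 pair at the top is brightest with aPD-1 and in YH29407 replicate 4, the Trav7-2 pair is dark in all YH29407 libraries, and the Trav6-5 and Trav7-5 copies are bright in combination replicate 4.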

How the data were processed

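RNA from 10 formalin-fixed, paraffin-embedded MC38 tumors was sequenced with paired-end reads of 100 bp after preparation with the SureSelectXT RNA Direct kit, which the labels give beside a second kit name. The authors trimmed the reads, mapped them with HISAT2 on the mm10 assembly and used StringTie for quantification, as their methods and processing notes say, and how reads that match several copies were counted is not given in the sources used here. The deposited table gives, per gene and library, the read counts, FPKM and TPM that the authors computed. Counts were used for all tests, deposited TPM for 1 comparison of scale, and FPKM was not used. A second deposited file holds program code and was not used.

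The members are genes matching the V segment names with at least 1 count. The members, gene lists and tests were chosen with earlier results of these data known. Counts were scaled by TMM and filtered by filterByExpr (edgeR 4.0.16, R 4.3.3), which kept 21523 genes with a default minimum count of 10. A quasi-likelihood model with 1 term per group was fitted to all 10 libraries, and p-values were adjusted after Benjamini and Hochberg over all genes tested, with a threshold of 0.05. The standard error is the absolute log2 fold change over the square root of F. The procedure was tested on simulated data. Breadth and summed CPM are descriptions. Thinning is the expected number of segments in a random draw of counts. Sequences, shared 100-base stretches and strands come from GENCODE M21, and positions from RefSeq on GRCm38, the mm10 assembly, where all 170 symbols matched. A bound against a group at 0 takes 3 counts per library and covers counting error only.

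Segments were named by a rule: the 10 with the most counts, those with the smallest unadjusted p among segments whose libraries did not overlap (8 above and 4 below YH29407 in the combination, and up to 2 each way in the other contrasts), and segments of known unconventional T cells, with their copies. Alternatives were RLE factors, no filter, the replicate number as a block, only the groups compared, DESeq2 1.42.0, limma-voom (limma 3.58.1) and each library left out, other count minimums, collapsed copies and thinning. Chosen after seeing the data were removal of the Trav15 pair, also with each library left out, and a DESeq2 interaction test.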

Additional observations from a re-analysis of the deposited data

Results flagged for a closer look

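The effect of adding aPD-1 ran in opposite directions with and without YH29407 for 4 segments, in every library of each contrast. Each lay lower in all combination libraries than in all YH29407 libraries, and higher in both aPD-1 libraries than in both controls. Of all genes, 9.1% were lower without overlap in the first contrast and 20.9% higher in the second. The share of genes that met both was not counted. Segments picked for this order have a negative interaction by the choice itself. The interaction, which is the log2 difference between the combination and YH29407 minus that between aPD-1 and the controls, was -6.95 for Trav15n-1 and -6.90 for Trav15d-1-dv6d-1, which share reads. It was -4.86 for Trav14n-1 and -5.01 for Trav14d-1, which share reads with each other. edgeR's adjusted p was 0.644 for both Trav15 segments, 0.718 for Trav14n-1 and 0.76 for Trav14d-1, so that none passed. With DESeq2, Trav15n-1 passed at an adjusted p of 2.5e-05, Trav15d-1-dv6d-1 at 3.3e-05 and Trav14n-1 at 0.0352, and Trav14d-1 did not, at 0.163. This DESeq2 test called 183 of 21407 genes (0.855%), 5 of them V segments. Among the 5 were Trav7d-2 and Trav7-2, which share reads, with interactions of the opposite sign, 7.08 and 6.59. Their adjusted p was 0.0122 and 0.0352 by DESeq2 and 0.644 for each by edgeR. Since copies share reads, the 5 are not separate measurements. How many V segments had an adjusted p in this test was not counted.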

How the results depend on the processing

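No V segment passed edgeR's threshold in the 5 comparisons as fitted, and DESeq2 called 4 between the combination and YH29407, 2 between the combination and aPD-1, 4 between YH29407 and the controls and 2 between aPD-1 and the controls. RLE factors, no filter, only the groups compared and limma-voom called 0 in all 5 comparisons. Over the fits that left out 1 library, the number of segments called lay between 0 and 2 for the combination against YH29407 and was 0 in the other comparisons. The difference in segments detected between the combination and YH29407 was 28.3 and became 33.7 with at least 5 counts required, 30.7 with at least 10, 25.4 thinned, 13.7 with copies collapsed and 9.28 thinned with the Trav15 pair also removed, and leaving out 1 library gave 23.8 to 36.3. The log2 ratio of summed CPM was 0.52, became 1.98 without that pair, and lay between 0.16 and 0.92 when 1 library was left out. Same-numbered samples had r of -0.057 to 0.115 over their 9 pairs, not every one over 0.1, for deviations from group means. In the groups of 2 libraries these deviations mirror each other, so r cannot decide on pairing for them. The labels do not say that same-numbered samples belong together, so the numbers were not taken as pairs. The fit with the replicate block called 0 segments in each comparison. At an unadjusted p under 0.05, 4 of 57 segments were higher with that block for the combination against YH29407 (8 of 57 as reported). For the combination against the controls it was 1 of 57 (9 of 57 as reported). DESeq2, run on 135 segments, gave 20 and 18. The share of all genes at that p was not counted with the block or DESeq2, so these numbers describe the fits and not the segments. In the fit with the replicate block, Trbv3 between aPD-1 and the controls changed sign, to a log2 fold change of 0.62. Segments under 10 counts in all libraries together cannot show a difference at this depth.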
